A study of Schizosaccharomyces pombe with 2 samples.

Results

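The genes gap1 (SPBC646.12c), map3 (SPAC3F10.10c) and ste24 (SPAC3H1.05) of fission yeast, Schizosaccharomyces pombe, act in pheromone signalling and mating. They are 3 of the 1144 genes counted here by multiplexed primer extension sequencing, a targeted RNA sequencing method in which gene-specific primers near introns start reverse transcription, so that reads separate spliced from unspliced transcripts. The members were selected on their low unspliced percentages in growing cells, set against the high values of most meiosis genes, so those percentages are given as a description and are not tested. All 3 passed a minimum of 50 mature plus premature counts in each library, as did 864 genes in all. There was 1 group with 2 libraries, wild-type replicate 1 and replicate 2. Both came from the Bioneer wild-type strain, which was started from a single colony. The cells were in log phase, at an OD600 of 0.8, in the rich medium YES at 30 °C. No treatment or mutant was compared. The labels do not give the mating type of the strain, nor whether the libraries came from separate cultures, so differences between them may be technical.

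Fission yeast cells mate when nitrogen runs out and a partner of the opposite mating type is near. P cells secrete P-factor and M cells secrete M-factor, a small lipid-modified peptide, and each cell type carries a receptor for the other's pheromone. The receptor signals through a G protein, Ras1 and a MAP kinase cascade to switch on mating genes. Map3 is the M-factor receptor of P cells. Gap1 is the GTPase-activating protein that turns Ras1 off. Ste24 is a membrane metalloprotease that trims proteins whose C-terminal CAAX motif has been lipid-modified, the class to which the M-factor precursor belongs. In this organism most introns are short, and a number of meiotic transcripts are known to be kept unspliced during growth.

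The introns at the 3 loci, read from RefSeq assembly ASM294v3, were of different kinds. The authors' build is not given in the sources used here, so the positions are those of RefSeq and not of the deposited counts. The gene ste24 lies on the plus strand at chrI:1938950-1940537 and encodes 444 residues. Its only intron, chrI:1939005-1939074, is 70 nt long and lies in coding sequence after codon 5. The sequence is shown because the counts of ste24 can be tied to it, with the 5′ splice site and the last 3 bases in capitals.
ste24 intron: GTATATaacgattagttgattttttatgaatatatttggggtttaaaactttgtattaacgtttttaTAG
The 5′ splice site GTATAT began 7 of the 1078 single introns of the counted genes, whereas GTAAGT began 381. The ending TAG was found in 833 of them. Translation that ran on into a retained ste24 intron would meet a TAG stop at codon 10, inside the intron.

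The gap1 gene lies on the minus strand at chrII:942688-948187, and its coding sequence for 766 residues runs from 947402 down to 945102. Its annotated 3′ UTR spans 2414 nt, and the only annotated intron, chrII:942780-942819, is in that UTR, 40 nt long and inside an annotated long terminal repeat of a transposon (chrII:942476-942820). Only 28 of the 1078 single introns were shorter. The sequence of this intron occurs at 1 place in the assembly. The same annotated UTR covers, on the opposite strand, the whole of cct6 (chrII:942907-944922), which encodes a subunit of the cytosolic chaperonin and has 3 coding introns of 45, 38 and 141 nt. The map3 gene, on the minus strand at chrI:2833231-2834988, has no annotated intron of 20 nt or more. On the opposite strand his6 (chrI:2832707-2834985), a histidine biosynthesis gene with 3 introns, covers 1755 of the 1758 nt of map3. The third his6 intron, chrI:2833530-2833595, 66 nt, lies wholly inside map3, opposite its 3′ UTR of 660 nt. The second, chrI:2833170-2833425, lies partly inside. The ends of these introns are shown because they are the annotated junctions from which mature counts at the 2 loci could be read, with splice sites in capitals, 5′ to 3′ on the intron's own strand.
gap1 intron, first 15 bases: GTAAGCtacgcagtt
gap1 intron, last 15 bases: tttaacgatactTAG
cct6 intron 1, first 15 bases: GTTGGTctataatat
cct6 intron 1, last 15 bases: cgctaacgttggCAG
cct6 intron 2, first 15 bases: GTAAGTtacttttat
cct6 intron 2, last 15 bases: aactcataatttTAG
cct6 intron 3, first 15 bases: GTAAGTgattaagaa
cct6 intron 3, last 15 bases: taactttattggTAG
his6 intron 3, first 15 bases: GTAAGAaaccaattc
his6 intron 3, last 15 bases: taacaaaacttaCAG

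Neither cct6 nor his6 has a row of its own in the counts analysed here. Each has 3 introns, whereas 1078 of the 1144 counted genes have 1 RefSeq intron and only 2 have more. The strand setting of the counting is not given in the sources used here. Reads of gap1 and cct6, and of map3 and his6, can therefore not be told apart, and the label "pheromone signalling" rests on the row names for gap1 and map3. At ste24 the only overlapping gene, SPAC3H1.06c on the other strand, shares 106 nt at the 3′ end and has no intron, so the ste24 intron lies opposite no annotated gene. A search of the intron sequences on their own RNA strand for CTAAC, a common form of the fission yeast branch point, and for TTAAC, a variant of it, found TTAAC in the introns of gap1 and ste24 and CTAAC in neither. CTAAC was present in 51.4% and TTAAC in 27.6% of the 1078 single introns. The second cct6 intron and the third his6 intron hold neither.

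**Figure D1:**
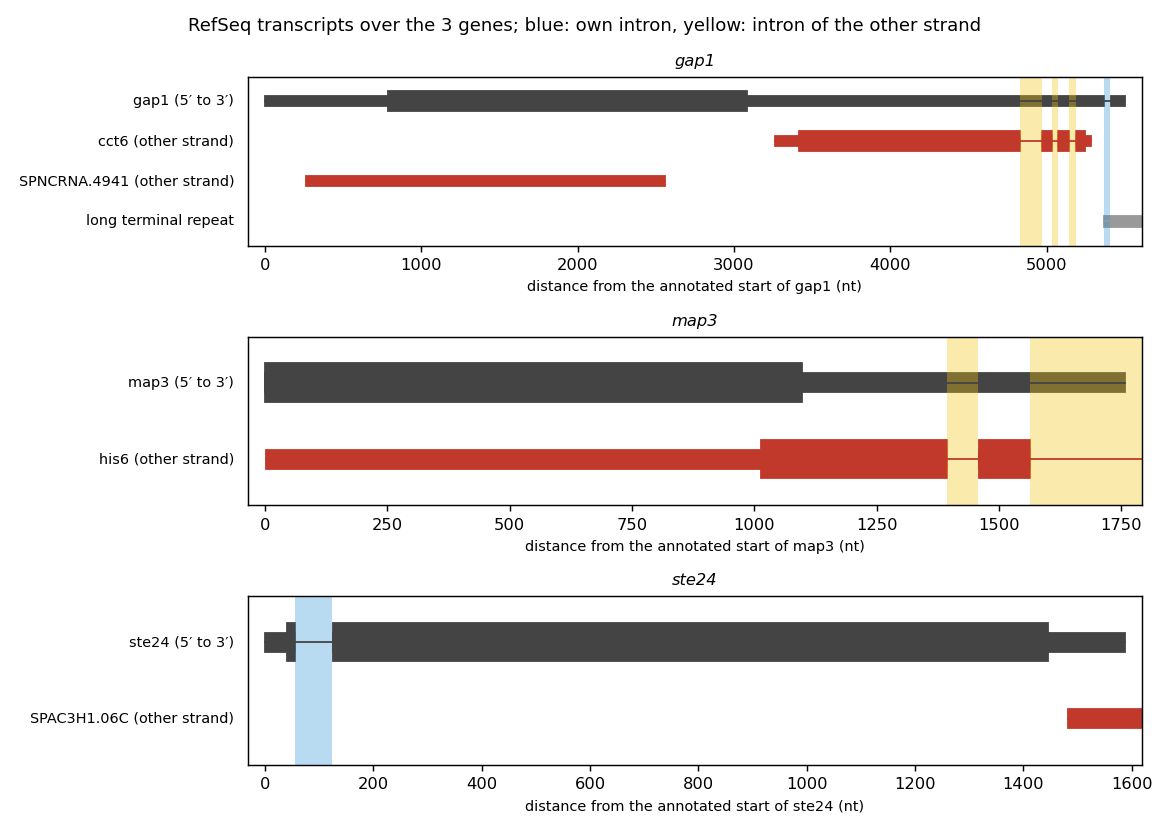
RefSeq transcripts over gap1, map3 and ste24, drawn to scale by distance in nt from each gene's annotated start, with thick boxes for coding sequence, thin boxes for UTR or noncoding exons, black for the named gene and red for genes on the other strand. Yellow bands, introns of the other strand, cross gap1 (3 of them from cct6) and map3 (from his6), and only the blue band, its own intron of 70 nt, crosses ste24.

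All 3 genes were counted almost entirely as spliced. For gap1, the Ras1 regulator, 1866 mature and 0 premature reads were counted in replicate 1, and 3057 mature and 0 premature reads in replicate 2. By counting error alone, 0 premature reads still allow 0.161% unspliced in replicate 1 and 0.0981% in replicate 2. For map3, the M-factor receptor gene, there were 374 mature and 3 premature reads in replicate 1 and 563 and 5 in replicate 2. The unspliced percentage, premature over mature plus premature, was 0.796% in replicate 1, with 0.271 to 2.31% as its 95% Wilson interval. In replicate 2 it was 0.880% (0.377 to 2.04%), which makes a mean of 0.838% ± 0.0598 (SD, n = 2). The 2 libraries lay well within each other's interval. For ste24, the CAAX protease gene, there were 372 mature and 9 premature reads in replicate 1 and 636 and 33 in replicate 2. Its unspliced percentage was 2.36% (1.25 to 4.43) and 4.93% (3.53 to 6.85), or 3.65% ± 1.82 (SD, n = 2). These intervals overlap, but the percentage of each library lay outside the interval of the other, and ste24 varied most between the libraries of the 3 members.

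**Figure D2:**
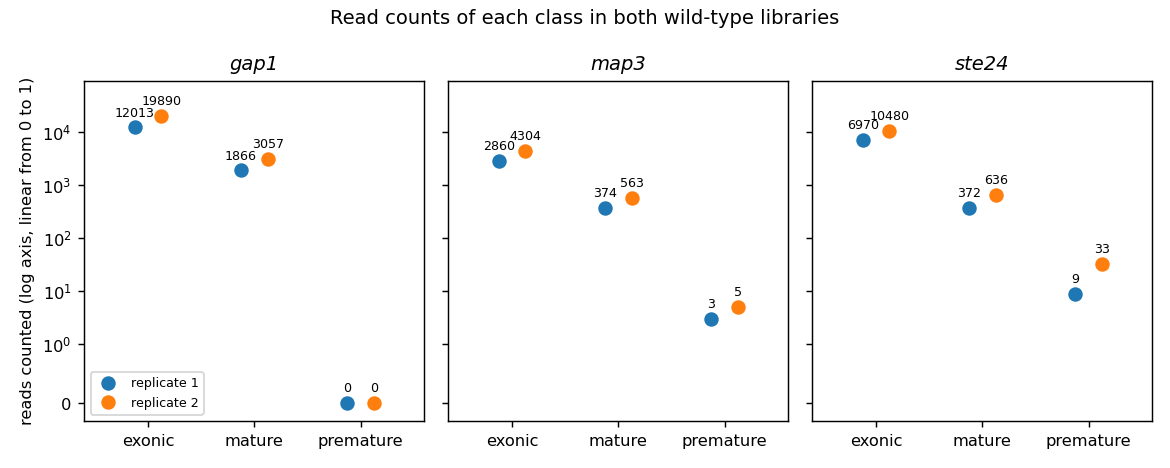
Reads counted in each class for gap1, map3 and ste24 in replicate 1 (blue) and replicate 2 (orange), on a log axis that is linear from 0 to 1. Premature reads number 0 and 0 for gap1, 3 and 5 for map3, and 9 and 33 for ste24, below the mature reads of the same gene in both libraries.

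The order was gap1 lowest, map3 next and ste24 highest in both libraries. This order is a description, since the percentages chose the genes. Over the 864 measured genes the median of the library means was 7.63%, with quartiles of 2.65% and 20.3%. No gene had a lower mean than gap1, and 4 others had no premature read in either library: ats1, mrpl24, yap18 and hmt1. For map3, 72 genes (8.33%) were lower, and for ste24, 268 genes (31.0%). Among the 13 measured genes whose single RefSeq intron lies in the 3′ UTR, gap1 was the lowest, the next was fml2 at 24.2%, and the median was 71.6%. Like gap1, fml2 holds introns of the other strand, 5 of them.

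The genes nearest to each member, by the distance between the logits of the unspliced share over both libraries with 0.5 added to each class, were picked by a fixed rule. For gap1 they were mrpl24, a mitochondrial ribosomal protein gene (distance 1.27, with 733 and 1291 mature and no premature reads), rpl1602, a cytosolic ribosomal protein gene (2.11), and int6, a translation initiation factor gene (3.27). For map3 they were mak16, a ribosome assembly gene (distance 0.0699, at 0.921% ± 0.0330, SD, n = 2), rpl1202 (0.0846) and rpl3001 (0.134). For ste24 they were fet5 (0.0555, with 6 and 23 premature reads), pob3, a subunit of a histone chaperone (0.0967), and orc3, a replication origin protein gene (0.168). None of these 9 genes holds an intron of the other strand. The measure uses 2 libraries and the values that chose the members, and it is a description.

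Exonic reads, which the choice of members did not use, gave the depth behind each gene. The libraries held 5796068 and 10009017 exonic counts in all. The gap1 row had 12013 exonic reads in replicate 1 and 19890 in replicate 2, which is 2073 and 1987 CPM, with each library's exonic total as the base. The map3 row had 2860 and 4304, or 493 and 430 CPM. The ste24 row had 6970 and 10480, or 1203 and 1047 CPM. All 3 had a lower CPM in replicate 2. Capture can differ between primers, so these values do not order the genes by RNA level.

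Scaled to the library totals, the log2 ratio of replicate 2 over replicate 1 was -0.06 for gap1, -0.20 for map3 and -0.20 for ste24, against a median of -0.13 over 1093 genes with at least 50 exonic counts in each library. A two-sided exact binomial test with Benjamini-Hochberg adjustment over those genes called all 3, at adjusted p = 0.000556, 5.66e-08 and 7.45e-18. It called 72.7% of all genes tested, so the count says nothing particular about the members, and it compares 2 libraries with counting noise. With DESeq2 size factors, which bring the median of all genes to 0.00, gap1 turned to 0.07 (exact binomial adjusted p = 0.000183), ste24 was at -0.07 (0.00704), and map3 at -0.07 was no longer called (0.108), while 36.9% of all genes tested were called. With library totals kept and the variance scaled by the overdispersion between the libraries, a normal test called only ste24 of the members. Its adjusted p was 0.00934 for ste24, 0.330 for gap1 and 0.123 for map3, and 13.4% of all genes were called. That test set each ratio against 0 and not against the median of -0.13. The call of ste24 at -0.20 therefore includes the shift of that median and does not set ste24 apart.

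The reads that decide splicing were also set against the exonic reads of the same row. For gap1, mature plus premature reads came to 15.5 per 100 exonic reads in replicate 1 and 15.4 in replicate 2. For map3 the values were 13.2 and 13.2, and for ste24 5.47 and 6.38. The gap1 and map3 values lay at ranks 171 and 222 from the top of 864 genes and that of ste24 at 528, with a median of 7.55 over all genes. Between the libraries a two-sided Fisher exact test, adjusted over 1093 genes, called none of the 3, with log2 ratios of -0.02 for gap1 (adjusted p = 0.949), 0.00 for map3 (1) and 0.22 for ste24 (0.159). The test called 7.23% of all genes. Without adjustment ste24 was under 0.05, at an exact p of 0.0194, and so were 17.4% of all genes.

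The other genes of the pathway ranged from under 1% to near 100% unspliced. Of 64 genes listed by role, 17 were in the files and 10, the members included, reached the count minimum. Of the 7 that are not members, 1 was under 5% unspliced and 3 were over 50%, with a median of 44.5%. Of all measured genes, 38.2% were under 5% and 9.84% over 50%. With the members, which were chosen for low values, 4 of 10 were under 5% and the median was 16.0%. At a minimum of 20 counts, 7 of 15 were under 5% and the median was 9.43%. At 200 counts, 4 of 6 were under 5% and the median was 2.24%. The genes gained at 20 counts were mfm2 (0%), scd2 (1.92%), scd1 (4.76%), git11 (9.69%) and dni2 (100%), none of them a member. The share of non-members under 5% therefore depends on the minimum. At the minimum of 50 counts, the gene under 5% besides the members was rce1, a second CAAX protease. It had 649 mature and 3 premature reads in replicate 1 and 1053 and 2 in replicate 2, or 0.325% ± 0.191 (SD, n = 2). Like gap1 and map3, rce1 holds introns of a gene on the other strand, 2 introns of rfc4, a replication factor C subunit gene. None of the other measured pathway genes does. Without gap1, map3 and rce1, a step chosen after the values were seen, 1 of 7 genes was under 5%, namely ste24, and the median was 44.5%. All 3 genes left out were under 5%, and 2 of them are members chosen for low values. The lower share was therefore fixed by the choice and says nothing about the other strand.

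The genes that make and modify the pheromones ranged from rce1, at 0.325%, and ste24 to mfm3. The M-factor precursor gene mfm3 had 0 mature and 59 premature reads in replicate 1 and 5 and 96 in replicate 2, or 97.5% ± 3.50 unspliced (SD, n = 2). Its copy mfm2 had no premature read against 28 and 35 mature reads, under the count minimum, which allows shares of up to 10.7% and 8.57%. The counting may have divided reads between such close copies. This was not tested, so both values are given with that limit. The gene cwp1, for the alpha subunit of the prenyl transferases that attach the lipid, was at 51.7% ± 0.348, with 160 and 241 premature reads. The ste24 intron of 70 nt and the mfm3 intron of 67 nt are of like length, and the introns of mfm3 and cwp1 both begin with GTAAGT. The same site begins the introns of rce1, at 0.325%, and ras1, at 9.43%, and those of git11 and cgs1, below the count minimum. The introns of rce1 and cwp1 are both 51 nt long. A relation of site or length to the unspliced percentage was not tested. The mfm2 intron is 42 nt long and begins with GTAAGA.

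In the Ras1 and MAP kinase arms gap1 was at 0%, and the other measured genes lay between ste24 and mfm3. The ras1 gene itself, whose product gap1 inactivates, had 32 and 47 premature against 292 and 476 mature reads, or 9.43% ± 0.629 (SD, n = 2). The gene ste4, for an adaptor of the MAP kinase cascade, was at 22.5% ± 0.543. The Cdc42 activator gene scd1 and the scaffold gene scd2 fell short of the minimum. For scd1 there were 27 mature and 0 premature reads in replicate 1 and 38 and 4 in replicate 2, and for scd2 25 and 1 in replicate 1 and 28 and 0 in replicate 2.

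Genes that link mating to nutrients, and genes of cell fusion, ranged widely. The gene gpa2, for the G protein alpha subunit of glucose sensing, was at 68.3% ± 6.56 (SD, n = 2), with 81 and 100 premature reads. The stress transcription factor gene atf1 was at 44.5% ± 0.336. Below the minimum, git11, for a G protein gamma subunit, had 7 and 3 premature against 40 and 64 mature reads, and cgs1, for the regulatory subunit of protein kinase A, had 2 and 2 against 0 and 4. For fusion, dni2 had 20 and 31 premature reads and no mature read, and prm1 had 2 and 2 premature against 10 and 19 mature reads. No gene of the transcription list was in the files.

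**Figure D3:**
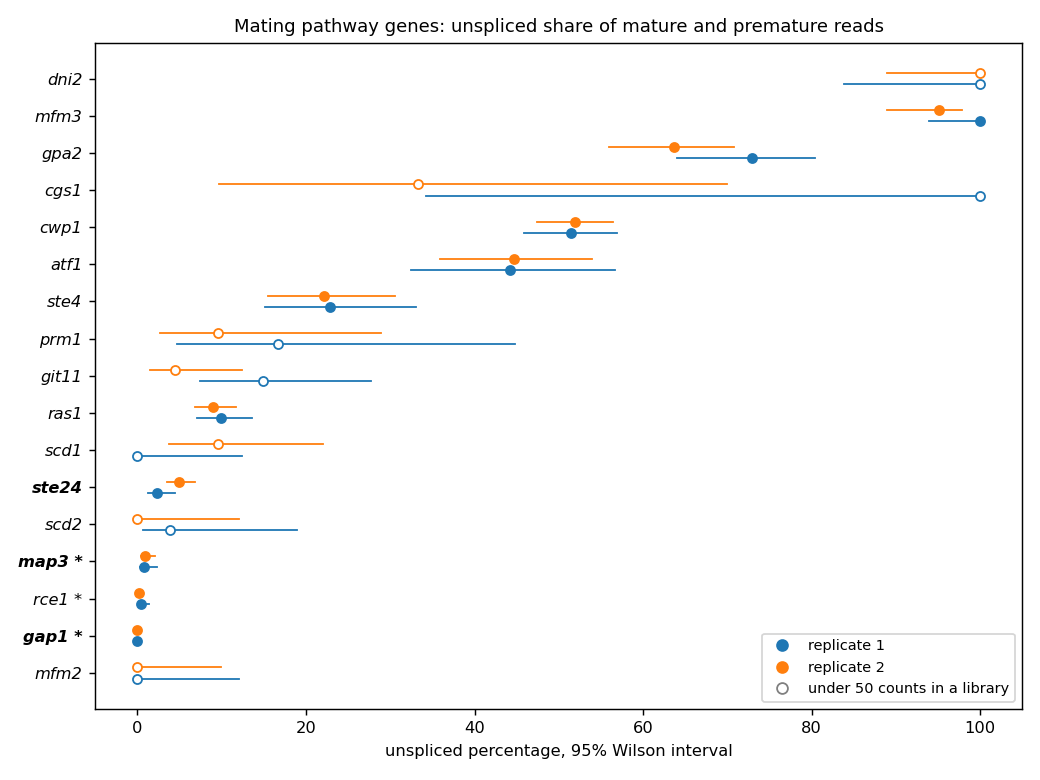
Unspliced percentage of the 17 pathway genes in replicate 1 (blue) and replicate 2 (orange), with 95% Wilson intervals, open symbols for genes under 50 counts in a library, bold names for gap1, map3 and ste24, and an asterisk for genes that hold an intron of the other strand. The 3 genes with an asterisk, gap1, rce1 and map3, lie under 1%, and mfm3 and dni2 lie near 100%. Of the genes without an asterisk, mfm2 lies at 0% in both libraries, scd1 in replicate 1 and scd2 in replicate 2, all with open symbols.

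The members differed from most genes named for meiosis, as their choice fixed. Of 34 genes in that list, 18 were measured, with a median of 80.3%, 12 over 50% and 2 under 5%. The lowest was bqt3, a telomere clustering gene, at 3.76% ± 0.439 (SD, n = 2), so ste24 lay beside the lowest of them. The next, rec14, was at 3.93% ± 0.681. The recombinase gene dmc1 was at 99.4%.

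The measured genes to which RefSeq gives no intron were also grouped by whether they hold an intron of a gene on the other strand, as a description. Of these 23 genes, map3 was 1 of 4 that hold an intron of a gene on the other strand. The other 3 were ats1 at 0%, opposite ubc6, rnh202 at 0.910% ± 0.300 (SD, n = 2), opposite rex2, and SPBC1711.15c at 40.2% ± 8.32, opposite rec15. Of the 19 genes with no such intron, 16 were over 50% and the median was 99.1%, and mrpl24 at 0% was the only gene under 5%. Among genes with 1 RefSeq intron, gap1 was 1 of 49 that hold an intron of the other strand. Their median was 5.09% and 49.0% of them were under 5%, against 7.56% and 38.1% for the 789 genes without one, ste24 among them. In all, 53 of 863 measured genes matched to RefSeq (6.14%) hold such an intron, and so do 11 of the 93 genes under 1% (11.8%). The 11 include gap1 and map3, which were chosen for low values and are also counted in the groups above. These groups were formed after the values had been seen, and the part of the other strand in the gap1 and map3 counts was not tested.

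**Figure D4:**
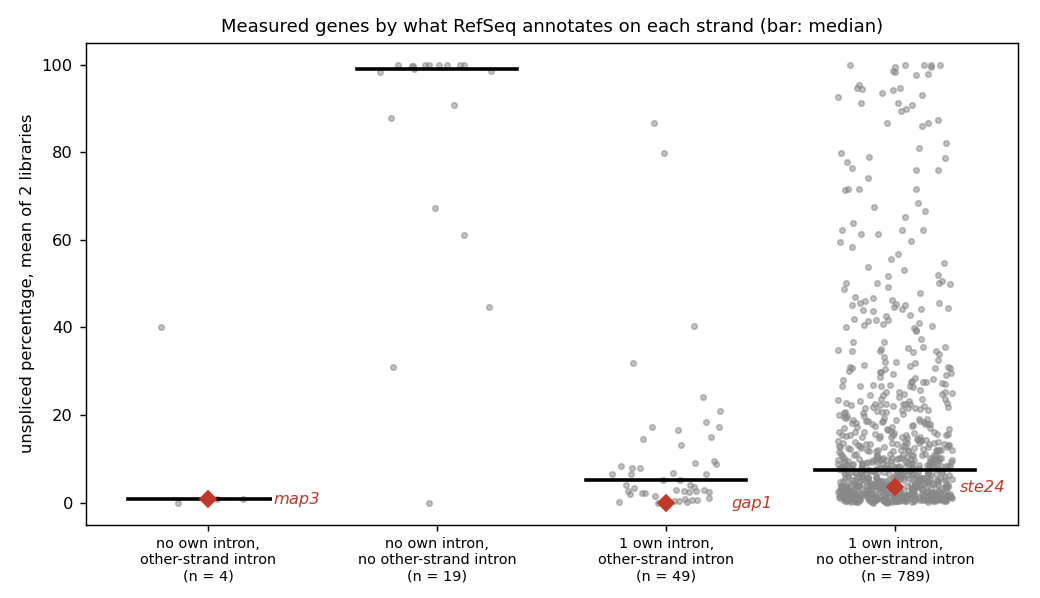
Mean unspliced percentage of measured genes (grey points), grouped by whether RefSeq gives the gene an intron of its own and an intron of a gene on the other strand, with a bar at each median and gap1, map3 and ste24 as red diamonds. The medians are 0.874%, 99.1%, 5.09% and 7.56% from left to right. Each member, chosen for a low value and counted in its group, lies under the median of that group.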

How the data were processed

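Each deposited table gives, per the file headers, whole raw counts of a gene's exonic, mature and premature reads. Trimmomatic 0.35, HISAT2 2.1.0 and HTSeq are listed, without their roles, in the submitters' processing notes. Not given in the sources used here were the class definitions, the genome build, the strand setting and any molecular identifiers. Mature was read as spliced and premature as unspliced, from the names. Without molecular identifiers reads are not independent molecules, so intervals and limits cover counting error only.

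Members and gene lists were chosen with earlier results of these data known. The unspliced percentage was computed per library and averaged. Between libraries, exonic counts (exact binomial test) and mature plus premature against exonic counts (Fisher exact test) were compared over all genes and adjusted by Benjamini-Hochberg at 0.05. Both tests were checked on simulated counts with counting noise only. These lacked the shift and overdispersion between the real libraries, so the check does not show how many calls are false here. A limit for a count of 0 used 3 counts. Genes named were the members, the listed pathway genes, overlapping genes and the 3 genes nearest to each member. The meiosis list took gene symbols by prefix, and its named genes, like the comparison genes of the overlap groups and of the 3′ UTR introns, were chosen after their values were seen. RefSeq ASM294v3 matched 1141 of 1144 genes, and gaps under 20 nt were not counted as introns. Of the 64 pathway symbols, 61 are in RefSeq. Tools were Python 3.11.15, scipy 1.17.1, numpy 2.4.6, pandas 2.3.3, and, for scaling factors only, DESeq2 1.42.0 and edgeR 4.0.16 under R 4.3.3.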

Additional observations from a re-analysis of the deposited data

How the results depend on the processing

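With 2 libraries of 1 group, no condition was compared and precision rests on the counts of each gene. No paired analysis was possible because there is only 1 group. Leaving out each library in turn, map3 ran from 0.796% to 0.880% and ste24 from 2.36% to 4.93%, gap1 was at 0% both times, and the ranks were 72 to 87 for map3 and 196 to 341 for ste24. With 0.5 added to each class gap1 was at 0.0216% and map3 at 0.946%. At a minimum of 200 counts map3 ranked 60 of 409 genes. For exonic counts, the log2 ratio of gap1 turned from -0.0607 to 0.0693 with DESeq2 size factors and 0.0650 with edgeR TMM factors, and map3 lost its call at -0.0685 and -0.0728 (exact binomial adjusted p = 0.108 and 0.0845). With library totals and the overdispersion between the libraries, gap1 (-0.0607) and map3 (-0.20) lost theirs (normal test against 0, adjusted p = 0.330 and 0.123). Genes called numbered 795 with library totals, 403 with DESeq2, 410 with TMM and 146 with library totals and overdispersion. For the reads that decide splicing per exonic read, the ratio of map3 was -0.00013 with mature reads alone and 0.0011 with both classes, and 33 genes were called with overdispersion against 79. Of the pathway genes, members included, at a minimum of 20 counts 7 of 15 were under 5% with a median of 9.43%. At 200 counts 6 were measured, 1 was over 50% and the median was 2.24%. Without genes holding an intron of the other strand, chosen after seeing the data, 1 was under 5% with a median of 44.5%. Without either library the pathway median ran from 15.6% to 16.4%. Counting other-strand introns that only touch a gene, also chosen after seeing the data, left the genes without an own intron at 4 and 19 and moved the single-intron groups to 61 and 777.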
